A study of Mus musculus with 22 samples.

Results

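Most CpG-dense DNA of the mouse genome was unmethylated in these samples, and the regions described here are the exception: 1 kb windows packed with CpGs that were nevertheless methylated in the embryo and in fetal liver. Windows ("tiles") of 1 kb were laid along chromosomes 1 to 19. A tile counted as CpG-dense when at least 30 of its CpGs were covered by 6 or more reads in each of the 12 whole genome bisulphite sequencing (WGBS) libraries. Its methylation level (%mCG) was the share of reads that kept a C, summed over the tile. Of 24733 CpG-dense tiles, 3257 had a wild-type mean above 80% in E10.5 embryo and above 70% in both E14.5 and E18.5 liver. These are called the methylated dense tiles. They were compared with 17583 CpG-dense tiles below 10% in all 3 wild-type datasets, with the other 3893 CpG-dense tiles, and with all 574594 tiles holding at least 8 covered CpGs.

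The tiles were selected on the wild-type methylation levels, so those levels are given as a description and were not tested by themselves. Any difference between genotypes, with its p-value, shares the wild-type libraries with the choice and is a description too. The levels in mutant libraries, the flanks, the sequence, the annotation and the mRNA were not used to choose them.

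All animals were inbred FVB/NJ mice homozygous for a multi-copy GFP reporter transgene (Line3) whose expression is driven by the HS-40 enhancer with a promoter of human alpha-globin, which the wild-type animals carried too. The wild-type group was Rlf+/+ and the mutant group was homozygous for MommeD28, an ENU-induced null allele of Rlf, which encodes a zinc finger protein. WGBS was done on 2 wild-type and 2 mutant samples each of whole E10.5 embryo (all male), E14.5 liver (replicate 1 male and replicate 2 female) and E18.5 liver (all female), and RNA-seq on 3 wild-type and 3 mutant E14.5 livers (replicates 1 and 2 male, replicate 3 female). Whole tissues were used, so a level is an average over cell types, and fewer cells of a type cannot be told apart from a change within cells. With 2 libraries a group, p-values cover only these samples. The edgeR tests of single tiles also took most of their estimate of spread from other tiles. A tile's p-value is thus not a measure of the spread of its own libraries.

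DNA methylation in mammals is found mainly at CpGs, where the maintenance enzyme copies it to the new strand at each division. Because methylated cytosine is prone to mutate to thymine, methylated DNA loses CpGs over evolutionary time, and clusters of CpGs (CpG islands) are mostly unmethylated and lie at promoters. The known exceptions include islands inside gene bodies, promoters of genes used only in germ cells, and transposable elements and tandem repeats, whose methylation is associated with silencing.

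The sequences below show what such tiles consist of. Each is a stretch of 150 bases of mouse build mm9, read 5′ to 3′, with every CpG in capitals. The first pair comes from coding exons, the place in which most of the methylated dense tiles lay. The Srrm2 stretch lies in a tile with one of the 5 highest levels over the 6 mutant libraries, and the Plec stretch lies in one of the 5 tiles with most CpGs.
Srrm2 coding exon, chr17:23956438-23956587, plus strand: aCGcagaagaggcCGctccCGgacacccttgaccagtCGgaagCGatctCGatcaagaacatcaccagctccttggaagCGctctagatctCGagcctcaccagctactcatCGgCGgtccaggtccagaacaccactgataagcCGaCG
Plec coding exon, chr15:76010363-76010512, minus strand: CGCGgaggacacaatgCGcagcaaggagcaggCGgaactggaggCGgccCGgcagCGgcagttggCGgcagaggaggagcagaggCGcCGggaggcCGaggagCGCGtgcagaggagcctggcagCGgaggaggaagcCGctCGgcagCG

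The 12 CpGs of the Srrm2 stretch had a mean level of 98.4% ± 1.3 in mutant E10.5 embryo and 95.2% ± 1.1 in mutant E14.5 liver (SD, n = 2). The 17 CpGs of the Plec stretch had 87.8% ± 1.6 and 88.9% ± 0.039. The Srrm2 stretch was slightly lower in liver than in embryo, and the Plec stretch was not. Srrm2 encodes a scaffold protein of nuclear speckles, and Plec encodes plectin, a large cytoskeletal linker.

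The next 3 stretches span start sites, from 100 bases before to 49 bases after, of genes on a list of germ cell genes. They are the listed genes whose tiles held the most covered CpGs, and are shown because a methylated CpG-dense start site is the unusual case.
Stk31 start site, chr6:49345503-49345652, plus strand: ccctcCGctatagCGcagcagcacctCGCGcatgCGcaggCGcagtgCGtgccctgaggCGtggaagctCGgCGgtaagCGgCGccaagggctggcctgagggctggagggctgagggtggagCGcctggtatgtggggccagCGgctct
Fkbp6 start site, chr5:135825696-135825845, minus strand: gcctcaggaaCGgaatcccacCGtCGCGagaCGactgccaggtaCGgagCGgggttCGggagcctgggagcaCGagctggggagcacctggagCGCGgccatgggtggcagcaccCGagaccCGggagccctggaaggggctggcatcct
Rpl10l start site, chr12:67385339-67385488, minus strand: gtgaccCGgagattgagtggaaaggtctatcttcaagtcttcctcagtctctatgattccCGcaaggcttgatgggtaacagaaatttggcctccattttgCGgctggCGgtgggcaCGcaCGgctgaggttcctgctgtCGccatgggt

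In mutant E14.5 liver the mean level was 82.3% ± 4.2 over the Stk31 stretch, 75.3% ± 1.9 over the Fkbp6 stretch and 81.8% ± 5.2 over the Rpl10l stretch (SD, n = 2). All 3 stretches were thus methylated at the start site itself and not only elsewhere in the 1 kb tile. Stk31 encodes a testis kinase-like protein with a Tudor domain, Fkbp6 an immunophilin needed in male meiosis, and Rpl10l a retrocopy of the ribosomal protein gene Rpl10 used in the testis.

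The last 4 stretches show the repeated sequence that many tiles held and the tiles with the largest genotype differences in E14.5 liver. The first is from the tile with the most covered CpGs (94), the second from a tile whose 31-base words recur throughout the genome, and the other two from the tiles with the largest fall and rise in mutant E14.5 liver.
intergenic repeat array, chr4:155511164-155511313, plus strand: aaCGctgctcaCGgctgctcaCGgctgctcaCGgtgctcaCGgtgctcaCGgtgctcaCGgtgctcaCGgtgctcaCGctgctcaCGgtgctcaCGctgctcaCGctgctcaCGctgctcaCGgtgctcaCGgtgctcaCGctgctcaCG
C130026I21Rik intron, chr1:85218159-85218308, plus strand: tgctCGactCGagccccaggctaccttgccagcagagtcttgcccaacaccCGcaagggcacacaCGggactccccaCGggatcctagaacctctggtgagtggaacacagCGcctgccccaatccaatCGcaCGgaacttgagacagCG
1110012J17Rik intron, chr17:66713763-66713912, minus strand: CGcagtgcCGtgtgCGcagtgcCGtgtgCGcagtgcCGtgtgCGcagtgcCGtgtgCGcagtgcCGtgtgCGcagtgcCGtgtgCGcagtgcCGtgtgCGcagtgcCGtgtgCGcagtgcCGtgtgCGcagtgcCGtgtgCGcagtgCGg
Fam50b coding exon, chr13:34838821-34838970, plus strand: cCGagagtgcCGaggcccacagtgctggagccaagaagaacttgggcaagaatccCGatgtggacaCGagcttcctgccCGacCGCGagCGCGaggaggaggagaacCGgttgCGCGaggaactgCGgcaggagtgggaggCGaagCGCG

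The 1110012J17Rik stretch repeated a short unit with a pair of CpGs throughout, and the intergenic array repeated an even shorter one. The Fam50b stretch is unique coding sequence. Both stretches are the 150 bases with the most CpGs in their tile, taken without regard to level, but the tiles were chosen for their genotype difference. The mean level of the Fam50b stretch in E14.5 liver was 56.9% ± 1.6 in wild-type and 83.0% ± 4.4 in mutant samples, where its whole tile had 70.4% ± 1.3 and 83.7% ± 3.5. The 1110012J17Rik stretch went the other way, with 80.2% ± 2.5 in wild-type and 55.2% ± 6.8 in mutant E14.5 liver, where its whole tile had 78.3% ± 2.7 and 60.004% ± 4.7.

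The methylated dense tiles sat close to the top of the scale in embryo and lower in liver. The mean over the 3257 tiles was 91.18 and 91.22% in the 2 wild-type E10.5 embryos and 91.96 and 92.02% in the mutants. In E14.5 liver it was 80.15 and 81.93% in wild-type and 82.37 and 81.89% in mutant libraries. In E18.5 liver it was 84.39 and 84.49% in wild-type and 86.69 and 84.45% in mutant libraries. The order embryo, E18.5 liver, E14.5 liver held in every library of both genotypes, and no tile was below 50% in any library.

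The SD over tiles was 3.03 to 3.60 points in the 4 embryo libraries and 5.02 to 5.68 points in the 4 E14.5 liver libraries. The choice of tiles bears on these spreads, since it allowed wild-type levels from 80% in embryo and from 70% in liver, so they are not compared. In the mutant libraries, whose values were not used in the choice, the lowest tile was at 76.0 and 76.9% in embryo and at 56.7 and 59.0% in E14.5 liver. Only 14 and 31 tiles were below 70% in the mutant E14.5 livers.

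**Figure D1:**
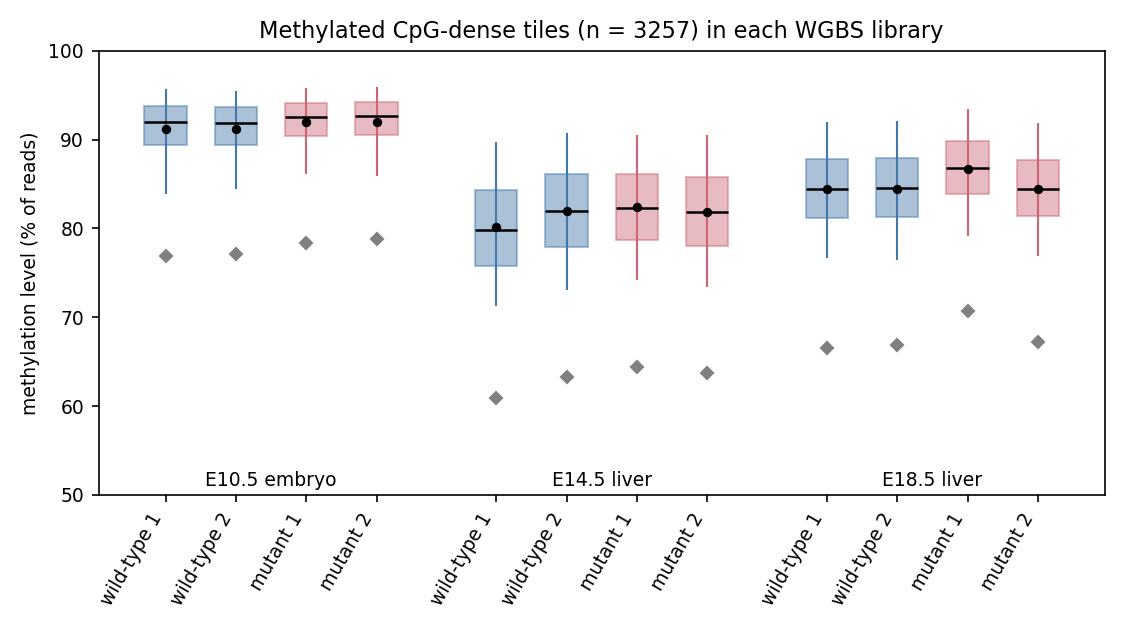
Methylation level (% of reads, axis from 50 to 100) of the 3257 methylated dense tiles in each of the 12 WGBS libraries. Boxes span the quartiles, vertical lines the 5th to 95th percentiles, black lines the medians and black dots the means over tiles; grey diamonds give the mean of all tiles tested. The boxes are highest in E10.5 embryo and lowest in E14.5 liver, and all tiles tested lie lower in every library.

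The tiles were covered at least as deeply as the rest of the genome. The median was 26.5 to 32.9 reads per CpG in the E10.5 and E18.5 libraries and 43.3 to 49.3 in the E14.5 libraries, against 21.9 to 24.7 and 40.8 to 45.6 over all tiles tested. Only 10 tiles exceeded 100 reads per CpG in any library. The deepest, chr11:3050001-3051000 at a Sfi1 and Gm11400 start site, held 464 to 1068 reads per CpG and levels of 71.1 to 85.1%. Depth of that size can come from copies that the assembly holds only once, which was not tested.

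Methylation was spread over nearly all CpGs of a tile. Of the 114917 covered CpGs in the tiles, 0.316% were below 50% in mutant E10.5 embryo, 1.36% in mutant E14.5 liver and 0.773% in mutant E18.5 liver. CpGs at 90% or more made up 73.5%, 23.1% and 37.04%. Averaged over the 6 mutant libraries, 2908 of the 3257 tiles (89.3%) held no CpG below 50%, and 3 held at least 5 such CpGs. The SD between CpGs of the same tile had a median of 6.16 points. The choice set a high wild-type mean for each tile, and the mutant means lay close to the wild-type ones. That limits how many CpGs could be low, so these values are a description only.

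The flanks were less methylated than the tiles. In mutant E10.5 embryo the mean CpG level was 91.9% inside the tiles, 82.6% at 1 to 2 kb from the tile centre and 75.3% at 2 to 5 kb. The matching levels in mutant E14.5 liver were 82.3, 71.4 and 64.3%, and in mutant E18.5 liver 85.6, 75.2 and 68.1%. CpG density fell from 35.3 covered CpGs per kb inside the tiles to 12.8 and 11.4 in the same flanks. The choice set a minimum count of covered CpGs inside the tile and none in the flanks. This fall in density was thus built into the choice and is a description only. The dense tiles below 10% had the reverse profile, with 1.71% inside and 47.7% at 2 to 5 kb in mutant E14.5 liver. The choice fixed the wild-type level inside each kind of tile, and levels of neighbouring CpGs are not independent of it.

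**Figure D2:**
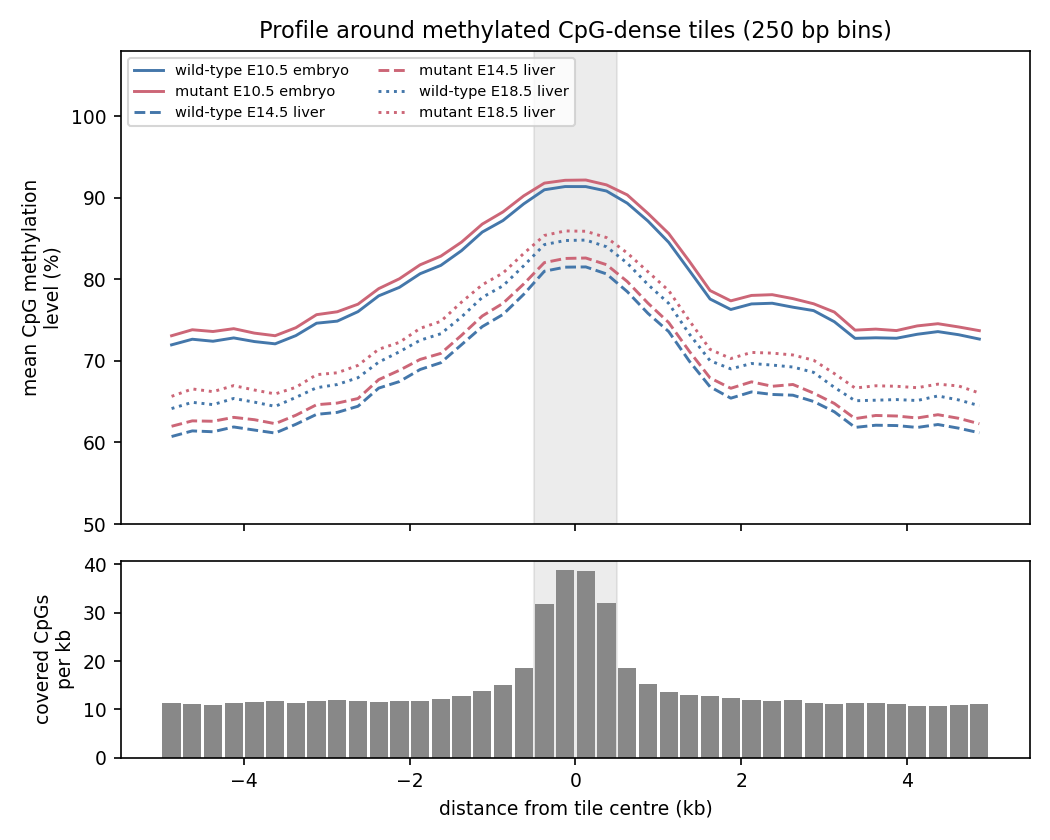
Mean CpG methylation level (upper panel, %) and covered CpGs per kb (lower panel) in 250 bp bins by distance from the centre of the methylated dense tiles, in kb; the grey band marks the tile. Blue lines are wild-type and red lines mutant means of 2 libraries, solid for E10.5 embryo, dashed for E14.5 liver and dotted for E18.5 liver. Every line is highest within the tile and falls on both sides. In the lower panel this shape was built into the choice, which set a minimum count of covered CpGs inside the tile only.

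Few of the tiles lay next to a dense tile below 10%. The median distance to the nearest dense tile below 10% was 31 kb (quartiles 12 and 94 kb), and 76 tiles (2.33%) lay within 2 kb of one. Among the other CpG-dense tiles the median was 15 kb and 27.4% lay within 2 kb. No annotation of CpG islands was used. The limits on level that define the classes bear on these distances, so they are descriptions.

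Coding sequence was the main place of the methylated dense tiles. By the annotation, 1821 (55.9%) held coding bases and no start site, 680 (20.9%) were intergenic, 371 (11.4%) held an annotated transcript start, 326 (10.01%) were intronic and 59 (1.81%) held other exon sequence. Of the dense tiles below 10%, 66.8% held a start site and 12.5% fell in the coding class. The other dense tiles had 30.95% and 37.2%. An exon overlapped 2251 of the methylated dense tiles (69.1%), against 82.4% of the tiles below 10% and 70.8% of the other dense tiles. Coding bases made up 36.2% of the methylated dense tiles, 11.1% of the tiles below 10% and 23.5% of the other dense tiles. In 341 tiles (10.47%) every base was coding, against 0.574% of tiles below 10%.

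**Figure D3:**
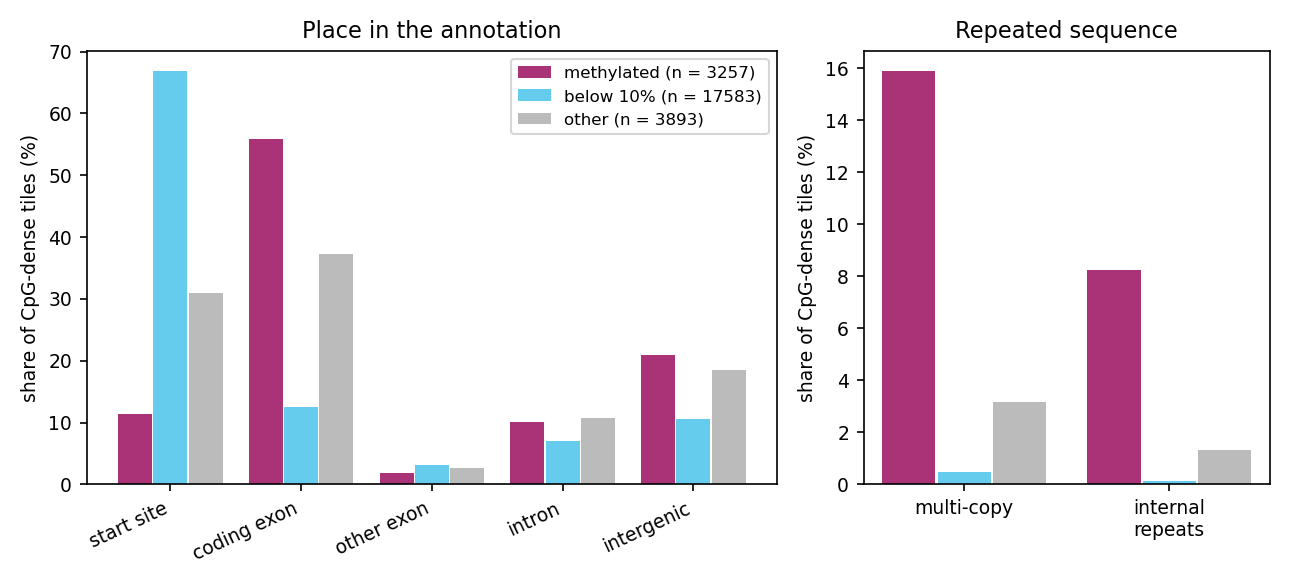
Share of CpG-dense tiles (%) by place in the annotation (left) and with repeated sequence (right), for the 3257 methylated dense tiles, the 17583 tiles below 10% and the 3893 others. Multi-copy means that over 50% of 31-base words occur more than once in the genome, and internal repeats that over 25% of 12-base words recur within the tile. Coding exons hold the largest share of the methylated tiles and start sites the largest share of tiles below 10%.

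Most genes with exons in the tiles had them in a single tile. Exons of 1745 genes overlapped a methylated dense tile, those of 389 genes overlapped at least 2 and those of 28 genes at least 5. The atypical cadherin gene Fat1 led with 13 tiles, then Plec with 12 and the homeobox and zinc finger gene Zfhx3 with 10. Cdc42bpb, a kinase gene, and Spen, which encodes a transcriptional corepressor, had 8 each. The tiles were mostly isolated, with 2730 having no methylated dense neighbour. The longest run was 10 adjacent tiles across Plec from chr15:76003001 to 76013000, followed by 8 in Spen, 6 in Zfhx3, 5 in Ahdc1 and 5 in Kif26a.

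The tiles with the highest and lowest levels were also mostly in genes. Over the 6 mutant libraries the 5 highest were a tile in Usp32 that holds the processed copy Rpl13-ps1, a pair of tiles in Srrm2, an intronic Baz2b tile and a Son tile. Son, like Srrm2, encodes a nuclear speckle protein. The Srrm2 tile at chr17:23956001-23957000 had 97.3 and 97.1% in the mutant embryos, 94.2 and 95.5% in the mutant E14.5 livers and 96.7 and 95.9% in the mutant E18.5 livers. It was above 94% in all 12 libraries. The 5 lowest were in 1110012J17Rik, Ccdc6, Midn and Ehmt2 and in the intergenic tile chr9:49298001-49299000. The Midn tile at chr10:79616001-79617000 had 80.2 and 80.2% in the mutant embryos and 67.2 and 71.8% in the mutant E18.5 livers. Ehmt2 encodes the H3K9 methyltransferase G9a.

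The tiles with the most CpGs were the intergenic array (94), then coding tiles of Bcl11b (87), Plec (80), Scaf1 (78) and Zfp319 (77). Bcl11b encodes a zinc finger transcription factor of T lymphocytes and neurons. Its tile, chr12:109154001-109155000, had 95.5 and 94.6% in mutant embryos, 80.9 and 81.2% in mutant E14.5 livers and 94.1 and 88.4% in mutant E18.5 livers. The Zfp319 tile did not follow that course, with 91.2 and 91.0%, 90.2 and 89.4%, and 92.0 and 91.4%.

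The choice placed its limit at 80% in wild-type embryo. Just above it lay tiles in Rltpr (80.2 and 79.8% in the 2 wild-type embryos), Ptprt (79.2 and 80.9%) and Nedd4 (79.5 and 80.7%). Just below it lay tiles in Baiap3 (79.6 and 80.1%), at a Chd7 start site (78.4 and 81.3%) and at chr2:167932001-167933000 (77.6 and 82.0%).

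The tiles had fewer CpGs and a lower CpG ratio than the unmethylated dense tiles. The median was 33 covered CpGs and a ratio of observed to expected CpGs of 0.495, against 55 and 0.717 in the tiles below 10%. The median GC content was 54.5% against 59.2%. In the other dense tiles the medians were 36 CpGs, 0.522 and 55.8%. The count of CpGs entered the choice of dense tiles only through the limit of 30.

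Repeated sequence was the second common content. In 517 tiles (15.9%) over 50% of the 31-base words occurred more than once in the genome, against 0.489% of the tiles below 10% and 3.16% of the other dense tiles. Internal repeats above 25% were present in 268 tiles (8.23%), against 0.125% and 1.34%. Multi-copy sequence was found in 355 of the 680 intergenic tiles (52.2%), in 112 of the 326 intronic tiles (34.4%) and in 14 of the 1821 coding tiles (0.769%). Reads from near-identical copies can be placed on the wrong copy or lost. The multi-copy tiles had a median of 31.6 reads per CpG over the 12 libraries and those with no repeated word had 35.4.

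Many of these tiles were copies of the same elements. Linking tiles that shared at least 100 31-base words joined 521 tiles into 52 groups. The largest had 172 tiles on 19 chromosomes, of which 142 were intergenic and 27 intronic. Its mean level was 93.6% ± 0.035 in mutant E10.5 embryo, 82.9% ± 0.39 in mutant E14.5 liver and 86.1% ± 1.2 in mutant E18.5 liver (SD, n = 2). The next had 63 tiles on 16 chromosomes, at 93.2% ± 0.080, 80.6% ± 0.23 and 84.9% ± 1.5, and included chr1:85217001-85218000, next to the C130026I21Rik tile of the sequence shown above. The next 2 groups had 45 and 32 tiles. They were at 91.5% ± 0.11 and 91.8% ± 0.17 in mutant embryo, 78.4% ± 1.1 and 77.3% ± 0.54 in mutant E14.5 liver, and 81.8% ± 1.6 and 82.6% ± 1.0 in mutant E18.5 liver. The elements are not named, since no repeat annotation was used here.

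The fall from embryo to liver was examined in the mutant libraries alone, of which the rule used the coverage but not the levels. In mutant E14.5 liver the mean over the tiles was 82.1% ± 0.34 and in mutant E10.5 embryo 92.0% ± 0.044 (SD, n = 2), a difference of -9.86 points. The exact permutation p was 0.333, the smallest that 2 against 2 allows. By edgeR, 3081 of the 3257 tiles were called (adjusted p under 0.05), of which 3065 fell and 16 rose. Over all tiles tested 88.4% were called, 84.3% lower and 4.15% higher. The median difference was -10.2 points over the tiles and -15.2 over all tiles tested. Tissue, stage, sex of the E14.5 pair and sequencing depth all differed between these groups and cannot be told apart. The limits of 80 and 70% on the wild-type levels bound how far such tiles could fall. The higher limit in embryo also favoured tiles that fall and left out tiles low in embryo. The wild-type means differed by -10.2 points, close to the mutants, so the fall in the mutants is a description too.

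**Figure D4:**
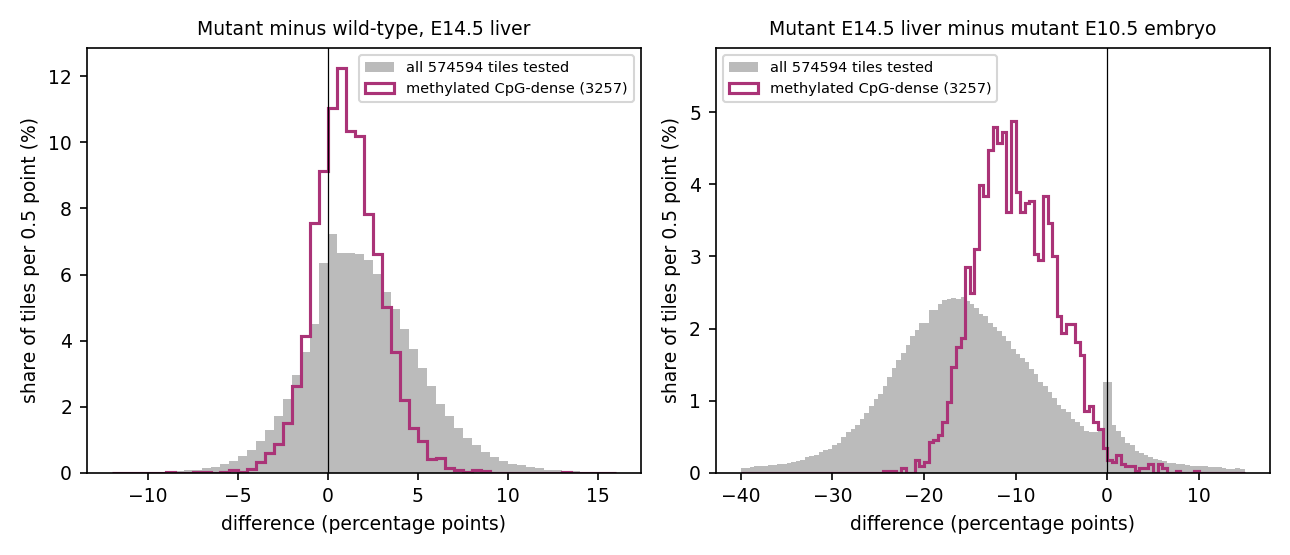
Distribution of differences in methylation level (percentage points) between mutant and wild-type E14.5 liver (left) and between mutant E14.5 liver and mutant E10.5 embryo (right), as the share of tiles per 0.5 point (%). The red line is the 3257 methylated dense tiles and the grey bars are all 574594 tiles tested; a few tiles lie beyond the axes. The red distribution is narrower than the grey in both panels, and in the right panel it is centred near -10 points.

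The fall was smaller in coding tiles than in intergenic ones. The median difference was -9.03 points in the coding class, -9.67 at start sites, -10.1 in introns and -12.2 in intergenic tiles. It was -11.8 in multi-copy tiles and -9.55 in tiles with no repeated 31-base word. Tiles with 50 or more CpGs had a median of -6.97 and tiles with 30 to 34 CpGs one of -10.4. These medians are descriptions, since tiles share libraries and overlapping classes were not separated.

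The largest falls were in Gcn1l1, Dusp27 and 3 intergenic tiles. Gcn1l1 encodes an activator of the amino acid stress kinase GCN2. Its tile chr5:116061001-116062000 had 94.0 and 91.2% in the mutant embryos and 68.9 and 67.8% in the mutant E14.5 livers (-24.2 points, adjusted p = 6.18e-13). The groups did not overlap and the 2 libraries of each lay within 3 points. The tile chr1:168030001-168031000, all coding sequence of the atypical phosphatase gene Dusp27, fell by 22.4 points (adjusted p = 8.29e-12), from 89.6 and 90.4% to 66.02 and 69.2%.

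The 5 largest of the 16 rises were in coding tiles of Srebf2 (9.79 points), ORF61 (7.70), Agap3 (6.36), Whsc1l1 (6.03) and Keap1 (5.67). The tile in Srebf2, the sterol-responsive transcription factor, had 77.0 and 81.3% in the mutant embryos and 87.8 and 90.1% in the mutant E14.5 livers (9.79 points, adjusted p = 4.89e-06). The tile in Keap1, the sensor that restrains the oxidative stress factor NRF2, went from 88.5 and 88.7% to 94.6 and 93.9% (5.67 points, adjusted p = 9.59e-06).

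The mutant livers had a higher mean at E18.5 than at E14.5. Stage, sex, sequencing depth and, by the authors' account, the mix of liver cell types differed between these groups and cannot be told apart. The mean rose from 82.1% ± 0.34 to 85.6% ± 1.6, by 3.44 points (exact permutation p = 0.333). Of the tiles, 173 were called, 171 higher and 2 lower, or 5.31%. Over all tiles 5.75% were called, 5.5% higher and 0.248% lower, and the median differences were 3.31 and 4.94 points. The count rested on the libraries: it was 1557 without E18.5 mutant replicate 2 (47.8%, against 36.7% of all tiles), 0 without E14.5 mutant replicate 1 and 1 without E14.5 mutant replicate 2. It was also 0 by limma, which called 0.252% of all tiles, and 20 in a fit over CpG-dense tiles alone, which called 1.29% of those tiles. By edgeR the unadjusted p was under 0.05 in 1132 of the methylated dense tiles (34.8%, against 30.7% of all tiles). The tiles named next are thus calls of edgeR alone. E18.5 mutant replicate 1 had the highest mean of the liver libraries.

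The largest rise was in the 1110012J17Rik tile (15.5 points, adjusted p = 0.00701). The Vps8 intron tile chr16:21613001-21614000 rose from 73.6 and 80.7% to 91.3 and 89.4% (13.2 points, adjusted p = 0.000621), but its wild-type E14.5 livers were at 90.2 and 64.5%, a wider spread than between the mutant groups. Vps8 encodes a subunit of an endosomal tethering complex. The 2 tiles that fell were in Pwp2, a ribosome biogenesis gene, and Ap2a2, a clathrin adaptor gene. The Pwp2 tile went from 82.2 and 85.1% to 70.7 and 67.5% (-14.6 points, adjusted p = 0.00213).

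Mutant and wild-type means differed by about 1 point in each dataset. The mean over the tiles was higher in mutant samples by 0.79 points in E10.5 embryo, 1.09 in E14.5 liver and 1.13 in E18.5 liver, with exact permutation p of 0.333, 0.667 and 0.667. In embryo the groups did not overlap. In both liver datasets they did, and the difference depended on which library was kept: it was 0.20 without E14.5 wild-type replicate 1, 1.98 without E14.5 wild-type replicate 2, 0.0099 without E18.5 mutant replicate 1 and 2.25 without E18.5 mutant replicate 2. Over all tiles tested the mean differences were 1.58, 1.96 and 2.26 points. The wild-type levels also set the choice of tiles, so nothing is read from these differences or their p-values. In embryo the difference was 0.57 points for the 2610 tiles 5 points above every limit.

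Few of the tiles passed the test between genotypes. In E10.5 embryo edgeR called 16 tiles, 14 higher and 2 lower in mutant samples, which is 0.491%, where 0.765% of all tiles were called, 0.75% higher and 0.0144% lower. In E14.5 liver it called 11, 9 higher and 2 lower (0.338%), where 0.963% of all tiles were called, 0.915% higher and 0.0479% lower. In E18.5 liver it called 1, which was higher (0.0307%), where 0.232% of all tiles were called, 0.222% higher and 0.00957% lower. Leaving out each library in turn gave 4 to 28, 2 to 33 and 0 to 53 calls, the highest without E10.5 wild-type replicate 2, E14.5 wild-type replicate 2 and E18.5 mutant replicate 2. At those highest counts 0.860, 1.01 and 1.63% of the methylated dense tiles were called, where 1.03, 2.20 and 2.08% of all tiles were. Because the wild-type libraries also set the choice, nothing is read from these shares. Of the other dense tiles, 12.5, 12.2 and 4.85% were called in the same 3 comparisons.

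The order of the libraries in the methylated dense tiles, called or not, was near that in all tiles. Both mutants were above both wild-type libraries in 1102 tiles (33.8%) in embryo, 1005 (30.9%) in E14.5 liver and 910 (27.9%) in E18.5 liver. Over all tiles the shares were 31.5, 34.2 and 31.2%. Both mutants were below in 285, 214 and 193 tiles (8.75, 6.57 and 5.93%), against 9.28, 6.5 and 6.46% of all tiles. In 159 tiles (4.88%) the mutants were above in all 3 datasets, against 5.57% of all tiles tested. The wild-type values in these counts also set the choice of tiles, so nothing is read from the shares.

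In all, 25 tiles were called in at least 1 genotype comparison, of which 17 were in the coding class, 4 in introns, 3 at start sites and 1 was intergenic. That is 0.768% of the methylated dense tiles, where 1.54% of all tiles were called in at least 1 dataset. Of these, 3 were called in both E10.5 embryo and E14.5 liver, in Myo15, Fam50b and 1110012J17Rik, and none of these was called in E18.5 liver. They are 0.0921% of the methylated dense tiles, against 0.251% of all tiles.

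The number of E14.5 liver calls moved with the test and with the mutant libraries. By limma 1 of the methylated dense tiles was called higher and 1 lower, against 9 and 2 by edgeR, and limma called 0.537% of all tiles. The largest rises in E14.5 liver were in adjacent tiles of Fam50b, an intronless gene. In chr13:34838001-34839000 the wild-type livers had 69.5 and 71.3% and the mutant livers 86.1 and 81.2%, a difference of 13.3 points (adjusted p = 6.63e-07). The next tile had 73.1 and 72.6% against 82.3 and 80.5% (8.55 points, adjusted p = 0.0137). In E10.5 embryo the first tile had 89.7 and 89.0% in wild-type and 95.4 and 91.8% in mutant samples, and was not called (adjusted p = 0.129 by edgeR). The second tile was called there, with 88.0 and 88.8% against 95.3 and 92.6% (5.57 points, adjusted p = 0.0214 by edgeR). In E18.5 liver the first tile had 84.8 and 84.3% in wild-type and 90.1 and 87.1% in mutant samples. The groups did not overlap in any of the 3 datasets in either tile, and the first tile was below the 70% limit in 1 wild-type library.

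The tile chr11:60292001-60293000, all coding sequence of the hearing myosin gene Myo15, had 83.8 and 84.3% in wild-type and 90.8 and 91.4% in mutant embryos (7.01 points, adjusted p = 0.032). In E14.5 liver it had 71.9 and 73.5% against 81.2 and 81.2% (8.51 points, adjusted p = 0.022). In E18.5 liver the mutants, at 83.7 and 77.5%, overlapped the wild-type livers at 76.5 and 77.7%. A coding tile of Epn3 (8.34 points) and an intronic tile of Tiam1 (8.24 points) completed the 5 largest rises in E14.5 liver. These are calls of edgeR, and at most 1 of the 5 was also called by limma.

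The number of embryo calls moved with the test. Over the same tiles limma called 0 of the methylated dense tiles and 0.0933% of all tiles. A fit over CpG-dense tiles alone called 3 of them, where it called 1.79% of the CpG-dense tiles. The largest rise in embryo was in coding sequence of Dact1, an antagonist of Wnt signalling. The tile chr12:72419001-72420000, which also overlaps 4930474H06Rik, had 80.3 and 85.8% in wild-type and 92.5 and 93.7% in mutant embryos (10.1 points, adjusted p = 0.000389). The start-site tile of Hsf5, a heat shock factor gene of the testis, had 79.6 and 83.6% against 92.0 and 88.9% (8.84 points, adjusted p = 0.00809). The tile at an internal start of the imprinted non-coding RNA gene Meg3 had 85.7 and 86.7% against 94.6 and 93.1% (7.64 points, adjusted p = 0.00572). Tiles in Abhd8 (7.64 points) and P2ry2 (7.41) followed. In E14.5 liver Hsf5 was at 90.005 and 91.2% in wild-type and 90.8 and 92.6% in mutant samples, which overlapped.

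The 1110012J17Rik tile, chr17:66713001-66714000, was lower in mutant samples in all 3 datasets. Wild-type and mutant embryos had 89.7 and 88.9% against 81.1 and 80.3% (-8.56 points, adjusted p = 0.0144 by edgeR). This embryo call was lost with the method: limma and the fit over CpG-dense tiles alone called 0 methylated dense tiles lower in embryo. Limma called 9 of all 574594 tiles lower, and the dense fit 5 of 24733. In E14.5 liver the values were 76.4 and 80.2% against 56.7 and 63.3% (-18.3 points, adjusted p = 1.47e-09), and in E18.5 liver 82.1 and 80.7% against 75.2 and 75.8% (-5.90 points, adjusted p = 0.638). Its 12-base words recurred within the tile for 17.0%, and depth was 23.3 to 42.7 reads per CpG. Only 3 of the 3257 tiles had both mutants below both wild types in all 3 datasets (0.092%, against 0.168% of all tiles tested).

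The other tiles called lower were a multi-copy intronic tile of C130026I21Rik in embryo and a coding tile of Chd7, a chromatin remodeller gene, in E14.5 liver. The first had 95.4 and 95.4% in wild-type and 90.9 and 91.0% in mutant embryos (-4.46 points, adjusted p = 0.0428 by edgeR). This embryo call, too, was absent by limma and in the fit over CpG-dense tiles alone. The only tile called in E18.5 liver, chr9:123260001-123261000, was intergenic, with internal repeats over 52.5% of its words. It had 81.3 and 89.2% in wild-type and 94.9 and 92.1% in mutant livers (8.28 points, adjusted p = 0.0431). The wild-type livers lay farther apart than the mutant livers. This call rested on the settings: the E18.5 count was 0 with limma, the replicate block, the fit over CpG-dense tiles alone, at least 10 reads per CpG or a minimum difference of 10 points. It was also 0 without either wild-type replicate or mutant replicate 1.

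Transcript starts lay in 371 of the tiles and belonged to 366 genes. For 171 genes the outermost annotated start was in the tile, of which 84 were protein-coding, 59 pseudogenes and 13 miRNA genes. For another 195 genes only a shorter transcript began there, 192 of them protein-coding. Expression was taken in E14.5 liver as CPM (read counts scaled to a common library total) per kb of exon.

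Protein-coding genes with their outermost start in a methylated dense tile had few or no reads in most cases. Their median in wild-type livers was 0.038 CPM per kb (quartiles 0 and 0.256), 24 of 84 had no read in any of the 6 libraries and 16 reached 1 CPM per kb. For the 9810 genes whose outermost start lay in a tile below 10%, the median was 6.42 CPM per kb and 76.6% reached 1. Where only another start lay in a methylated tile, the median of the 192 genes was 5.24 CPM per kb and 82.3% reached 1. The 87 genes of other types with their outermost start in a methylated tile went the other way. Their median was 0.170 CPM per kb and 36.8% reached 1, against 0.0405 CPM per kb and 12.9% for the 1040 such genes in tiles below 10%. Pseudogene reads can come from a near-identical expressed gene, so these levels are uncertain. Of the 16 protein-coding genes that reached 1 CPM per kb, chosen after their values were seen, the 4 highest were the gene models Gm8730, Gm9755, Gm10269 and Gm7935. Their reads are uncertain in the same way. Named genes among them were Phf17 at 8.44 CPM per kb and Ly86 at 4.76.

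**Figure D5:**
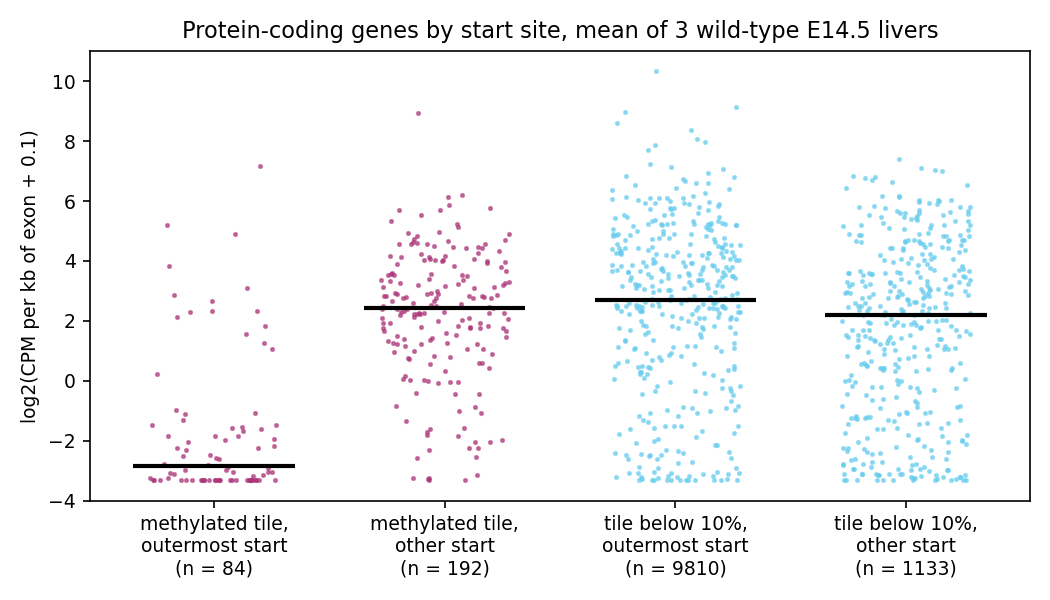
Expression of protein-coding genes in E14.5 liver, as log2 of the mean CPM per kb of exon of 3 wild-type livers plus 0.1, by whether the outermost start or only another start lies in a methylated dense tile or a tile below 10%. Each point is a gene (400 genes drawn at random where there are more) and black lines are medians over all genes of the class. Genes whose outermost start is methylated lie mostly at the bottom of the axis, with a median of 0.038 CPM per kb before the log.

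The 10 most expressed genes with a start in the tiles were of the same kinds. Atp5a1, a subunit gene of mitochondrial ATP synthase, led with 491 CPM per kb, and its start in the tile was an internal one. Ptbp1, a splicing repressor gene (74.1), and Ehd1, an endocytic recycling gene (70.3), also had internal starts there. The rest were Rps16-ps2 (360), Gm13826 (170), Gm8730 (146), Gm9625 (78.3), Gm12966 (77.0), Gm15210 (75.1) and Gm11964 (71.5), pseudogenes or gene models whose reads are uncertain for the same reason.

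Of the 6 gene lists examined at start sites, germ cell genes had the largest share with a start in the tiles. The lists were written with earlier results of these data known, and no share over all genes was taken. This rank is thus a description only. Of 63 listed germ cell genes in the count tables, 16 had a start in a methylated dense tile, for 14 of them the outermost, and 8 had one in a tile below 10%. They included Stra8, the retinoic acid gatekeeper of meiosis, Spo11, which makes meiotic breaks, Hormad1 and Syce3 of the chromosome axis and synaptonemal complex, and Piwil2, Mov10l1 and Tex19.1, which restrain transposons in the germ line. Brdt, Dpep3, Fkbp6, Hsf2bp, Rpl10l, Slc25a31, Stk31, Tuba3a and Tuba3b were the others.

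None of the 16 was expressed above 0.365 CPM per kb in wild-type liver, and 5 had no read in any of the 6 libraries. Mean levels in mutant E14.5 liver ran from 73.5% (Piwil2) to 86.8% (Spo11). Slc25a31, a testis ADP/ATP carrier, had the highest level per kb of exon (0.365). Its values before scaling by length were 0.744, 0.616 and 0.418 CPM in wild-type and 0, 0.144 and 0 CPM in mutant livers. These counts did not pass the filter and were not tested. Its tile had 75.03% in wild-type and 79.6% in mutant E14.5 liver. Only Brdt was tested, with 0.819, 0.616 and 0.767 CPM against 1.08, 0.718 and 1.12 CPM (log2 fold change 0.41, adjusted p = 0.62). The 3 germ cell markers summed to 0.558 to 0.967 CPM in wild-type and 0.0701 to 0.387 CPM in mutant livers, with 1 of them at 0, and their part in these values was not tested.

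The sequence around these starts was searched for the letters CACGTG (the E-box bound by MAX and its partners) and GCGGGAA (an E2F-type word), on both strands, without overlap between them. CACGTG was in 7 of the 16 germ cell gene tiles (43.8%), in 24.04% of all methylated dense tiles and in 21.1% of all CpG-dense tiles. GCGGGAA was in 6 of 16 (37.5%), 10.8% and 19.3%. A match is a description of the letters only.

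Other gene groups were rare at start sites. No start of a clustered protocadherin gene (25 in the tables) or a Hox gene (41) lay in the tiles. Of 436 zinc finger genes named Zfp, Zscan, Zkscan or Zbtb, 5 had an internal start there (Zbtb17, Zbtb48, Zfp628, Zfp64 and Zfp865), but 85 had exon sequence in a tile. Of 36 imprinted genes, Meg3 and Fkbp6, which is on both lists, had a start there. Of 23 genes of the methylation machinery, Ehmt2 had an internal start there. Its mRNA was at 23.8 CPM per kb in wild-type and 24.8 in mutant liver (adjusted p = 0.673 by edgeR).

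Only 1 gene with a start in the tiles passed the main mRNA test between genotypes, which had no block for replicate number. Of the 366 genes 230 passed the filter on low counts, and Fscn1, which encodes the actin-bundling protein fascin, was called. It had 77.9, 96.7 and 82.9 CPM in wild-type and 63.7, 66.6 and 65.6 CPM in mutant livers, with no overlap (log2 fold change -0.39, SE 0.069, adjusted p = 0.0182 by edgeR). The single call is 0.435% of the 230, where 1.39% of all 14183 genes tested were called. With replicate number as a block 4 of the 230 were called (1.74%), 1 higher and 3 lower, where 3.24% of all genes were called. The count was 0 without wild-type replicate 3, mutant replicate 1 or mutant replicate 3, and 3 without wild-type replicate 2. The start in the tile was an internal one, and the tile had 83.7% in wild-type and 84.7% in mutant E14.5 liver.

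The Meg3 mRNA spread too widely for a call, with 131, 153 and 106 CPM in wild-type and 223, 103 and 140 CPM in mutant livers (log2 fold change 0.27, adjusted p = 0.62). Rlf mRNA was 68.3, 74.8 and 68.5 CPM in wild-type and 76.0, 79.4 and 67.5 CPM in mutant livers (log2 fold change 0.08, adjusted p = 0.65). A point mutation can leave the mRNA level as it is, so this level does not check the genotype labels. The 8 hepatoblast markers were all detected and summed to 56440 to 64880 CPM in wild-type and 66740 to 77560 CPM in mutant livers, which did not overlap, and 0 of them were called. The 8 erythroid markers summed to 23590 to 44150 and 29320 to 31830 CPM, which overlapped, and 0 were called. The 3 megakaryocyte markers summed to 255 to 276 and 322 to 355 CPM without overlap, and 1 of them, Pf4, was called higher in the mutants. The 3 neutrophil markers summed to 333 to 483 and 327 to 383 CPM, and 2 of them, Elane and Ltf, were called lower. The 3 macrophage markers found summed to 119 to 127 and 114 to 118 CPM, which did not overlap, and 0 were called. The endothelial (121 to 148 and 134 to 164 CPM) and mesenchymal sums (617 to 817 and 635 to 1038 CPM) overlapped, and 0 of their 3 markers each were called. The part of these cell types in the values above was not tested.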

How the data were processed

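The authors aligned WGBS reads with Bismark and Bowtie2 and RNA-seq reads with TopHat, counted without regard to strand with HTSeq, on mm9 (tools and build per the submitters' processing notes). The authors had set known FVB variants in the genome, whereas sequences printed here are the reference. The deposited WGBS files give, per cytosine, counts of converted and unconverted reads and the authors' percent of methylation, which was not used; the deposited RNA-seq files give read counts per gene. The 4 H3K4me1 libraries were not analysed here. Bisulphite sequencing does not separate methylated from hydroxymethylated cytosine.

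CpGs on chromosomes 1 to 19 with at least 6 reads in all 12 WGBS libraries (12771067 CpGs) were summed in 1000 bp tiles. Libraries held 314390416 to 697227249 reads over CpGs of these chromosomes, and 0.0412 to 0.0775% of spiked lambda cytosines stayed unconverted. Tiles with at least 8 CpGs were tested with edgeR 4.0.16 (quasi-likelihood test, library intercepts, common dispersion from 20000 tiles, Benjamini-Hochberg adjustment over 574594 tiles). RNA-seq libraries held 12928313 to 14621004 counts. They were tested with edgeR after TMM scaling and filterByExpr over 14183 genes. Alternatives used limma 3.58.1 and DESeq2 1.42.0. On simulated data 192 of 200 changed tiles (of 40000, E14.5 liver comparison) and 195 of 200 changed genes (of 14204) were recovered, with 9 and 8 false calls. The changed tiles were simulated at intermediate levels, below those of the methylated dense tiles. Their shift was larger than any genotype difference of a whole tile named here, and the simulated gene changes were larger than that of Fscn1. These shares thus do not give the power for the methylated dense tiles or for small changes.

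Exons and starts came from GENCODE M1 on NCBIM37, joined to the count tables by gene ID. Words of 31 bases were counted in the whole genome with numba 0.67.0. Same-numbered RNA-seq libraries deviated together (r = 0.153, 0.222 and 0.427 over genes). The main fit nevertheless had no block for the number, and the count with a block is given beside it. The labels do not say what a number marks, and replicate 3 was female in both genotypes. Same-numbered WGBS libraries did not deviate together (see the closing section).

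The tiles and gene lists were chosen with earlier results of these data known. Named tiles were the 5 highest and 5 lowest over the mutant libraries, the 5 with most CpGs, the 5 largest called differences in each direction, the 5 longest runs and the 3 on each side of the 80% limit. Named genes were the 10 most expressed, those called, and list members with a start in a tile.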

Additional observations from a re-analysis of the deposited data

Results flagged for a closer look

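In 7 of the named methylated dense tiles both mutants were above both wild-type libraries in one dataset and below both in another. The tiles named for lying just under the 80% limit are not among the methylated dense tiles and are left out of this count. Several of the 7 were named for their mutant levels or for a difference between groups, which favours such a pattern. Nothing is thus read from their number beside the shares that follow. The difference between the 2 effects was not tested in any of them, and with 2 libraries a group such a pattern was present in 3.99% of the methylated dense tiles between E10.5 embryo and E14.5 liver, in 3.19% between E10.5 embryo and E18.5 liver and in 2.33% between the livers (4.02, 3.87 and 2.99% of all tiles tested). In the Chd7 exon tile the mutant minus wild-type difference was 4.58 points in E10.5 embryo, -7.50 in E14.5 liver and 2.78 in E18.5 liver, so that the effects differed by 12.1 points between embryo and E14.5 liver and by -10.3 between the livers. In the Ccdc6 tile it was 2.54, -2.84 and -4.89 points, with gaps from the embryo effect of 5.38 and 7.43 points. The embryo and E14.5 liver effects differed by 5.50 points in the Dusp27 tile, by 6.01 in the intergenic tile chr8:63070001-63071000 and by 3.07 in the Zpbp intron tile. The E14.5 and E18.5 liver effects differed by 8.76 points in the Ap2a2 tile, where both mutant E18.5 livers, at 77.6 and 80.05%, were below both wild-type livers, at 87.8 and 85.2%. The embryo and E18.5 liver effects differed by -3.68 points in the first Spen tile of the run of 8.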

How the results depend on the processing

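The number of tiles followed the coverage and density limits: 2151 with at least 10 reads per CpG, 23402 with at least 20 CpGs, 569 with at least 40, and 3205 to 3309 without each wild-type replicate. The exon share was 66.4% with protein-coding transcripts only, 47.3% by tile centre and 69.0 to 69.2% without each wild-type replicate. The genotype calls depended on the method. In E10.5 embryo (16) limma called 0, the dense tiles alone gave 3, a minimum difference of 10 points gave 1, and leaving out libraries gave 4 to 28, with 4 without wild-type replicate 1, 28 without wild-type replicate 2 and 8 without mutant replicate 1. In E14.5 liver (11) limma called 2, the dense tiles alone 7, the 10-point minimum 2, and leaving out libraries gave 2 to 33, with 33 without wild-type replicate 2 and 2 without either mutant. In E18.5 liver (1) the count was 0 by limma, in the dense tiles alone, with the 10-point minimum and with at least 10 reads, and 0 to 53 without each library, with 53 without mutant replicate 2. Unadjusted p was under 0.05 in 322, 219 and 168 tiles (9.89, 6.72 and 5.16%, against 10.9, 10.52 and 7.66% of all tiles). Of all tiles limma called 0.0933, 0.537 and 0.130%, the 10-point minimum 0.623, 0.652 and 0.191%, and leaving out libraries 0.258 to 1.03, 0.241 to 2.20 and 0.0362 to 2.08%. The fit over dense tiles alone called 1.79, 3.56 and 1.18% of those. Mutant E14.5 liver against embryo gave 2952 to 3040 calls without each library and 1698 with the 10-point minimum. Mutant E18.5 against E14.5 liver gave 0 by limma (1132 tiles had an unadjusted p under 0.05 by edgeR), 20 in the dense tiles alone, 24 with the 10-point minimum and 0 to 1557 without each library. The mean genotype differences were 0.76 to 0.82, 0.20 to 1.98 and 0.0099 to 2.25 points without each library, and 0.57 in embryo for the 2610 tiles 5 points above every limit. Genes called with a start in a tile numbered 4 with no filter on low counts and 0 to 3 without each library, with 3 without wild-type replicate 2 and 0 without wild-type replicate 3, mutant replicate 1 or mutant replicate 3. The cause was not tested for any of these changes.

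Same-numbered WGBS libraries did not deviate together (r = 0.046, 0.0074 and -0.013 over tiles in the 3 genotype comparisons, 0.0013 and 0.0057 between mutant datasets). The numbers were thus not taken to pair them. In E14.5 liver the number is also the sex, and the authors describe those samples as littermates. With a replicate block the counts were 40, 6 and 0 between genotypes (1.23, 0.184 and 0%, against 1.499, 0.671 and 0.194% of all tiles), 3069 for mutant E14.5 liver against embryo and 367 for mutant E18.5 against E14.5 liver (11.3%, against 10.1% of all tiles). In the RNA-seq same-numbered libraries did deviate together. There the block gave 4 genes in place of 1 (1.74% of those tested), while the calls over all genes went from 197 to 460 (3.24%).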
